A study of Homo sapiens with 8 samples.

Results

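Aminoacyl-tRNA synthetases join each amino acid to its transfer RNA. NF-Y occupancy was followed at 35 of their genes, 19 for cytosolic and 16 for mitochondrial enzymes, among 20037 protein-coding genes. The genes were listed by the enzyme they encode, but the list was chosen with earlier results of these data known. A gene was counted as bound when an NF-Y peak overlapped the 1000 bp either side of either gene end (hg38). Binding was read by CUT&RUN, where an antibody brings a nuclease to a protein and the freed DNA is sequenced. The cells were RH30 and RH4, human rhabdomyosarcoma lines that carry the fusion oncogene PAX3-FOXO1. The RH30 cells expressed an inducible cytosine base editor, received 1 guide RNA by transduction, were selected with blasticidin and were collected 8 days after rapamycin had switched on editing. The guides sgCCAAT2a and sgCCAAT2b target a CCAAT motif in the PAX3 promoter, so those libraries are the edited ones below. The extent of editing was not analysed here. The guides sgCtrl1 and sgCtrl2 are controls in the same engineered cells. RH4 cells were uninfected and untreated. Each RH30 guide gave 1 NFYB library, and RH4 gave 1 NFYB and 1 NFYC library. The 2 IgG libraries, of RH30 with sgCtrl1 and of RH4, were not analysed here. No guide or antibody has a replicate, so no comparison below carries a p-value, and intervals cover the counting of genes only. The RH30 libraries are named after their titles, although their source name and cell line fields read RH4. The lists hold no expression, so the muscle lineage could not be checked by transcripts. Of the muscle genes MYOD1, MYOG, DES and MYF5, MYOD1 had a peak with sgCtrl1 and sgCtrl2, and the other genes had a peak in 0 libraries.

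NFYA, NFYB and NFYC together form NF-Y, which binds the CCAAT box, a short element found upstream of the start of many housekeeping and stress-responsive genes. Cytosolic synthetases serve translation in the cytosol, and several of them sit in a multisynthetase complex held together by the scaffold proteins AIMP1, AIMP2 and EEF1E1. Mitochondrial synthetases are made from separate nuclear genes and imported, except that GARS1 and KARS1 encode both forms of their enzyme. Many cytosolic synthetase genes are induced by ATF4, a transcription factor of the amino acid response.

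Sequencing depth in RH30, per the file headers, was 10.5 to 28.2 M tags, deepest in the edited libraries, and 1.22 to 3.10% of tags lay in peaks. The lists held 2451 and 2558 peaks for sgCCAAT2a and sgCCAAT2b and 4025 and 6687 for sgCtrl1 and sgCtrl2. RH4 NFYB and NFYC had 3243 and 3760 peaks. Median peak width was 153 and 163 bp with sgCCAAT2a and sgCCAAT2b and 189 and 197 bp with sgCtrl1 and sgCtrl2. In RH4 it was 411 bp for NFYB and 190.5 bp for NFYC. Whether a motif lies inside a peak therefore depends on peak width too. Depth is unknown for RH4. The files give peak positions without heights, so presence, position and, in RH30, place in the file are what can be compared.

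Synthetase genes carried NF-Y in every library, and cytosolic and mitochondrial genes did so at similar shares. With sgCCAAT2a, 6 of 19 cytosolic genes (31.6%, exact 95% interval 12.6 to 56.6%) and 5 of 16 mitochondrial genes (31.2%, 11 to 58.7%) had a peak, where 8.9% of all protein-coding genes did. With sgCCAAT2b the counts were 6 of 19 (31.6%) and 4 of 16 (25%, 7.27 to 52.4%), beside 9.27% of all genes. With sgCtrl1 they were 7 of 19 (36.8%, 16.3 to 61.6%) and 6 of 16 (37.5%, 15.2 to 64.6%), beside 12.6%. In the sgCtrl2 list they were 5 of 19 (26.3%, 9.15 to 51.2%) and 5 of 16 (31.2%), beside 16.8%. RH4 NFYB gave 7 of 19 (36.8%) and 8 of 16 (50%, 24.7 to 75.3%), beside 15% of all genes. RH4 NFYC gave 7 of 19 (36.8%) and 7 of 16 (43.8%, 19.8 to 70.1%), beside 15.3%. The intervals of the 2 compartments overlapped widely in all 6 libraries. That overlap is a description of 19 and 16 genes, and a difference between compartments was not tested. For both compartments the share lay above the share of all genes in each of the 6 lists, although the lower bound was below it for mitochondrial genes with sgCCAAT2b and for both compartments with sgCtrl2.

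**Figure D1:**
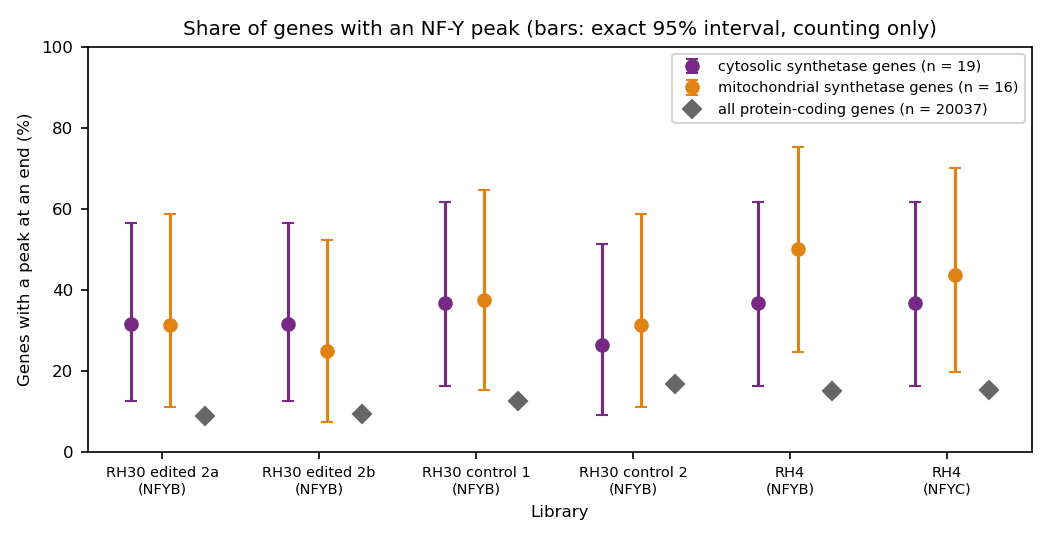
Share of genes with an NF-Y peak within 1000 bp of a gene end, in percent, for 19 cytosolic (purple) and 16 mitochondrial (orange) synthetase genes and for 20037 protein-coding genes (grey), by library. Bars are exact 95% intervals for counting only. The purple and orange intervals overlap in every library, from 31.6% and 31.2% with sgCCAAT2a to 36.8% and 43.8% for RH4 NFYC.

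Of the 35 genes, 16 had a peak in at least 1 library (45.7%, beside 21.7% of all genes) and 8 had one in all 6 (22.9%, beside 7.03%). The cytosolic genes with a peak in all 6 were IARS1, QARS1, TARS1 and WARS1, which charge the tRNAs of isoleucine, glutamine, threonine and tryptophan. The mitochondrial ones were CARS2, EARS2, PARS2 and SARS2, for cysteine, glutamate, proline and serine. Without sgCtrl2, AARS1 joins them, giving 9 genes (25.7%, beside 7.42%). For the other genes with a peak the pattern was partial. AARS1 was in 5 libraries, LARS1, RARS2 and TARS2 in 4, NARS1 in 3, YARS1 and WARS2 in 2 and HARS2 in 1. The remaining 19 genes, 11 cytosolic and 8 mitochondrial, had no peak at either end in any list.

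**Figure D2:**
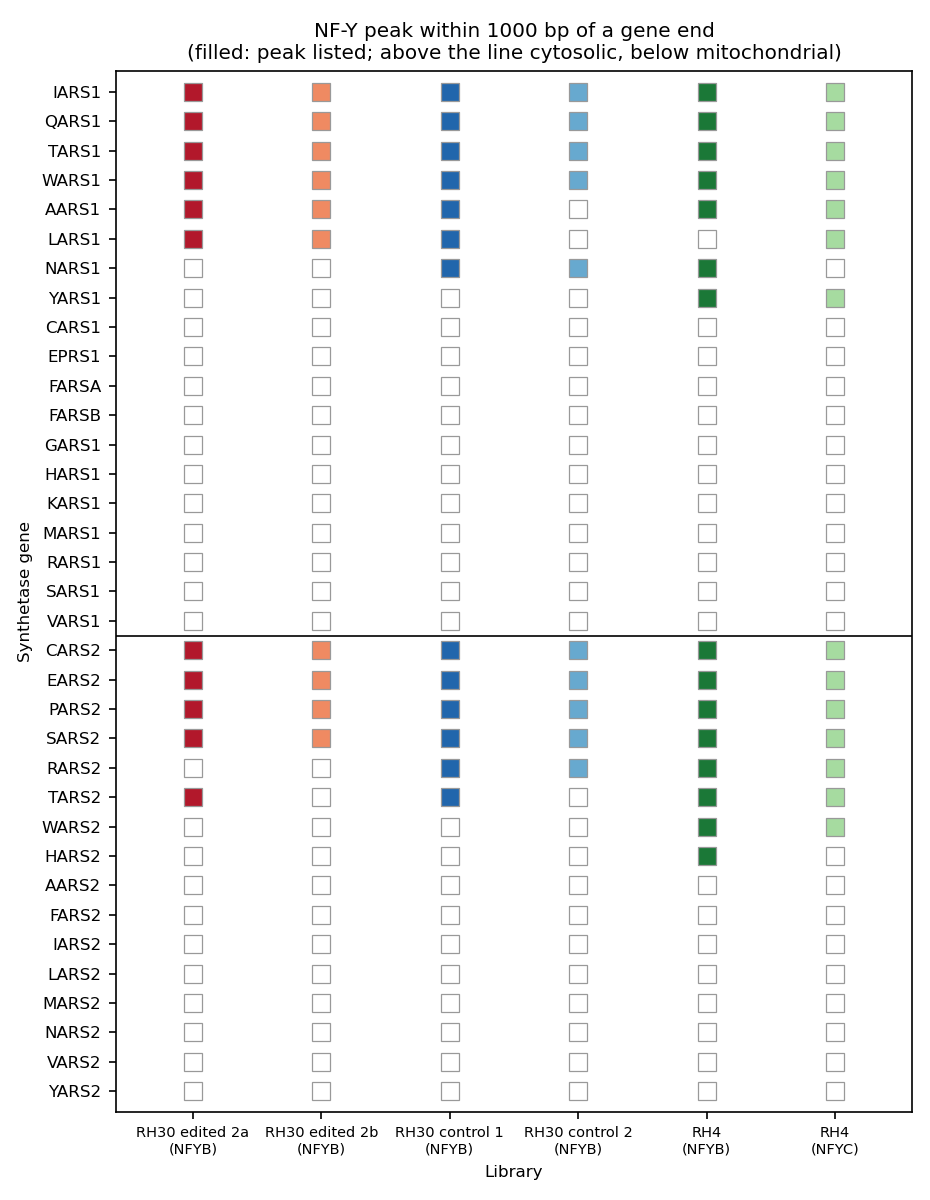
Presence of an NF-Y peak within 1000 bp of either gene end for the 35 synthetase genes (rows) in the 6 libraries (columns). Filled squares mark a listed peak. In the upper block 4 cytosolic genes are filled across all 6 columns and in the lower block 4 mitochondrial genes are.

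Cytosolic and mitochondrial enzymes of the same amino acid were set side by side. Of 17 pairs that can be formed, with EPRS1 set against EARS2 and PARS2 and both FARSA and FARSB against FARS2, 2 had a peak at both genes in some library. These were threonine (TARS1 in 6 libraries, TARS2 in 4) and tryptophan (WARS1 in 6, WARS2 in 2). In 5 pairs the cytosolic gene alone had a peak: AARS1, IARS1, LARS1, NARS1 and YARS1. In 6 pairs the mitochondrial gene alone did: CARS2, EARS2, HARS2, PARS2, RARS2 and SARS2. The pairs for phenylalanine, methionine and valine had none, which makes 4 pairs. No expected number of pairs was computed for these states. Some of the calls lay nearer to a start or end of a neighbouring gene in some library. These are given below for WARS1, YARS1, CARS2, HARS2, RARS2 and SARS2. Of the 7 listed cytosolic enzymes that belong to the multisynthetase complex, 3 had a peak in some library (IARS1, LARS1 and QARS1) and EPRS1, KARS1, MARS1 and RARS1 had none. Among the 12 other cytosolic enzymes 5 had a peak, and 21.7% of all genes had one in at least 1 library. The 2 groups of enzymes were not tested against each other. This grouping was made after the values had been seen.

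Among the cytosolic genes, IARS1, on chromosome 9 from 92210207 to 92293697, was bound just outside its 5' end. Its peak centres lay 104 and 106 bp outside the gene with sgCCAAT2a and sgCCAAT2b, 59 and 89 bp with sgCtrl1 and sgCtrl2, and 128.5 and 101 bp for NFYB and NFYC in RH4. The centres of all 6 libraries thus fell between 59 and 128.5 bp. The 200 bases before the start of this gene and of the other cytosolic genes whose peaks lie there are given here, since these stretches hold the peak centres. They are from RefSeq, GRCh38.p14, 5' to 3' on the strand of the gene, with the NF-Y pentamer (CCAAT, or ATTGG where it lies on the other strand) in capitals. IARS1 (chr9:92293698-92293897), QARS1 (chr3:49104758-49104957), WARS1 (chr14:100376328-100376527), AARS1 (chr16:70289507-70289706) and NARS1 (chr18:57621837-57622036) are all on the minus strand.
IARS1: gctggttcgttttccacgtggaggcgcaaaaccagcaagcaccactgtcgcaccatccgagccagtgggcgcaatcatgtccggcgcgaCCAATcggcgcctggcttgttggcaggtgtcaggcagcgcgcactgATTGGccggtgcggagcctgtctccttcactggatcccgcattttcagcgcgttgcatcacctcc
QARS1: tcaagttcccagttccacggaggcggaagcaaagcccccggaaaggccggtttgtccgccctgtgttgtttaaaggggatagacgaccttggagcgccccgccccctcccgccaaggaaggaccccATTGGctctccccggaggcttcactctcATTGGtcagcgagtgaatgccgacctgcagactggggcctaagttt
WARS1: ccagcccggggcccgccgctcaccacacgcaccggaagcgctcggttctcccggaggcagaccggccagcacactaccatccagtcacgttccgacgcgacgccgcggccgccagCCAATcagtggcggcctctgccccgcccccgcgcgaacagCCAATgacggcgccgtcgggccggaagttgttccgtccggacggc
AARS1: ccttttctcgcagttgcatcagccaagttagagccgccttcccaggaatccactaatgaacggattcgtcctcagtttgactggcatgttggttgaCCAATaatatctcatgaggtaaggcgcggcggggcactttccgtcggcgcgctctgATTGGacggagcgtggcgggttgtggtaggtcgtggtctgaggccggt
NARS1: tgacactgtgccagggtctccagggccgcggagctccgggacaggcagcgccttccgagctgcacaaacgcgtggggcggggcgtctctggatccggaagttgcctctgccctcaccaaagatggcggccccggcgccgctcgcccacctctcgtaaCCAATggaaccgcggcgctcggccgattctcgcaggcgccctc

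In IARS1 the boxes are centred at -109 and -63 from the gene start and 46 bp apart, and both lay inside the peak in all 6 libraries. QARS1, whose enzyme is cytosolic while mitochondria obtain glutaminyl-tRNA by amidation, has 2 boxes at -72 and -44, 28 bp apart, both inside the peak in all 6. The QARS1 gene lies on chromosome 3 from 49095932 to 49104757. Peak centres were 36 and 57 bp outside its 5' end with sgCCAAT2a and sgCCAAT2b, 35 and 78 bp with sgCtrl1 and sgCtrl2, and 27.5 and 85.5 bp in RH4. A separate peak lay 1671 to 1801 bp beyond its 3' end in all 6 lists, outside the window, and was nearest to an end of the neighbouring gene QRICH1.

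WARS1 encodes the tryptophan enzyme, which is known to be induced by interferon, and lies on chromosome 14 from 100333790 to 100376327. Its peak centres were 27 and 73 bp outside the 5' end in the edited libraries, 73 and 71 bp in the controls and 99.5 and 61.5 bp in RH4. The boxes at -83 and -43 are 40 bp apart and lay inside the peak in all 6 libraries. The start of WDR25 on the opposite strand is 158 bp away, and the RH4 NFYB centre was nearer to WDR25, at 58.5 bp.

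TARS1, on chromosome 5 from 33440696 to 33468091, differs in that its peak centres lay inside the annotated gene range. The peak centres were at -102 and -94 from a start in the RefSeq promoter table with sgCCAAT2a and sgCCAAT2b, at -73 and -41 with sgCtrl1 and sgCtrl2, and at -104 and -74.5 for NFYB and NFYC in RH4. Measured from the outermost end of the gene range, the centre lay inward in each library, at -165 to -228 bp. The box at -48 from that start, inside the peak in all 6 libraries, is shown with its surroundings (chr5:33440905-33440934, plus strand).
TARS1: cccgttatccATTGGctgctcgttccgccg

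AARS1, the alanine enzyme, on chromosome 16 from 70252298 to 70289506, had a peak in 5 libraries and none with sgCtrl2, although that list is the longest. Its peak centres lay 55 and 59 bp outside the 5' end with sgCCAAT2a and sgCCAAT2b, 49 bp with sgCtrl1, and 55.5 and 54 bp for NFYB and NFYC in RH4, so all 5 lay between 49 and 59 bp. With sgCtrl2 the nearest peak was 91795 bp away. Of genes bound in the other 5 libraries, 1 of 9 synthetase genes lacked an sgCtrl2 peak, beside 5.18% of all genes. LARS1, the leucine enzyme, on chromosome 5 from 146113034 to 146182650, was bound at the end of higher coordinate in both edited libraries, with sgCtrl1 and for RH4 NFYC. The LARS1 centres scattered more, at 188 and 93 bp outside the gene with sgCCAAT2a and sgCCAAT2b, 51 bp with sgCtrl1, and 45.5 and 175.5 bp for the 2 small RH4 NFYC peaks. YARS1, the tyrosine enzyme, on chromosome 1 from 32775239 to 32817358, was bound in RH4 and in no RH30 library, with centres 183 bp (NFYB) and 176.5 bp (NFYC) outside the end of higher coordinate. Both centres were nearer to a start of S100PBP, at 99 and 92.5 bp, so the peak cannot be given to 1 of the 2 genes.

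Among the mitochondrial genes, SARS2 stood highest in the RH30 files. Its peak was at place 276 of 2451 with sgCCAAT2a, 219 of 2558 with sgCCAAT2b, 225 of 4025 with sgCtrl1 and 226 of 6687 with sgCtrl2. File order is not stated to be a rank, so place is given as a description. In RH4 the SARS2 peaks were 656 bp (NFYB) and 564 bp (NFYC) wide, the widest of any synthetase gene in either list, where the median of all peaks at gene ends was 420 and 205 bp. The gene lies on chromosome 19 from 38915266 to 38930763 and faces MRPS12, a gene for a protein of the small mitochondrial ribosomal subunit, whose nearest start is 181 bp away on the other strand. In the edited libraries and with sgCtrl1 the peak centre was nearer to the end of MRPS12 (89, 75 and 89 bp) than to that of SARS2 (92, 106 and 92 bp). With sgCtrl2 and in RH4 it was nearer to SARS2, at 30, 69.5 and 52.5 bp. The stretch between the 2 genes therefore counts for both. The SARS2 window holds 4 boxes, at -156, -107, -60 and -26. The same 200 bases are shown for the mitochondrial genes bound just before their start: SARS2 (chr19:38930764-38930963), PARS2 (chr1:54764524-54764723), EARS2 (chr16:23557351-23557550) and RARS2 (chr6:87589988-87590187), all on the minus strand, with the pentamer in capitals.
SARS2: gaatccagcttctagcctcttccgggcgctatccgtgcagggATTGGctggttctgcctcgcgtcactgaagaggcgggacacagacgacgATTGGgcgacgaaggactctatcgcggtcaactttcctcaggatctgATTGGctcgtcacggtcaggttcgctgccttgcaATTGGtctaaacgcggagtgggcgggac
PARS2: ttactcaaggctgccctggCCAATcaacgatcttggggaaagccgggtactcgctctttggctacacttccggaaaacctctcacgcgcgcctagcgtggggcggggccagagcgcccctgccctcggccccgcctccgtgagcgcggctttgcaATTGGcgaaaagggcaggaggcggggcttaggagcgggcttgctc
EARS2: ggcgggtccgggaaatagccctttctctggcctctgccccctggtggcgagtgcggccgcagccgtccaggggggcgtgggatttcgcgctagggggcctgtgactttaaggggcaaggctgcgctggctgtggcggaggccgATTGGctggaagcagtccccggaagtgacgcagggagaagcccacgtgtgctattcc
RARS2: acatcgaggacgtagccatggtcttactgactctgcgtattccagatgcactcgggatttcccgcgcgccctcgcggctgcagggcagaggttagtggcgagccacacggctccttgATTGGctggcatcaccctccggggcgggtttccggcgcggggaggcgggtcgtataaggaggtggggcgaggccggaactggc

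PARS2, the proline enzyme of mitochondria, on chromosome 1 from 54756898 to 54764523, had peak centres 120 and 158 bp outside the 5' end in the edited libraries, 109 and 95 bp in the controls and 147.5 and 139.5 bp in RH4. Its boxes lie 136 bp apart, and the centres fell between them. The box at -179 lay inside the peak in all 6 libraries and that at -43 in 4. EARS2, the glutamate enzyme, on chromosome 16 from 23520754 to 23557375, has UBFD1 on the other strand with a start 352 bp away. Its single box, at -55 from the start used here, was inside the peak in 5 libraries. With sgCtrl1 the peak began beyond the box, with its centre 143 bp outside the gene, against 83 and 79 bp with sgCCAAT2a and sgCCAAT2b.

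CARS2 is the case in which the call at a gene end does not sit on a start of that gene in the promoter table. All 6 peaks lay inside the CARS2 gene range (chromosome 13 from 110641410 to 110713522), with centres inward of its 5' end, at -369 to -469 bp. The nearest start in the promoter table was that of ING1, an inhibitor of growth family gene on the other strand. The centres were at -117 and -108 from it in the edited libraries, -115 and -208 in the controls and -129 in both RH4 lists. Of the 4 boxes in the CARS2 promoter window, which lies further into the gene, 0 lay inside these peaks. RH4 NFYC had a further peak 185 bp from that CARS2 start. HARS2 was likewise bound through a neighbour: its RH4 NFYB peak was centred 1079.5 bp beyond the 3' end, 972 bp from it at its nearest edge, and 62.5 bp from the end of ZMAT2. The 85 bp between the starts of HARS1 and HARS2, which share a promoter, had no peak in any library.

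TARS2, on chromosome 1 from 150487419 to 150507602, was bound with sgCCAAT2a and not sgCCAAT2b, with sgCtrl1 and not sgCtrl2, and in both RH4 lists. Its peak centre lay 49 bp outside the gene with sgCCAAT2a, 98 bp with sgCtrl1 and 92 and 52.5 bp in RH4, and its boxes at -68 and -37 lay inside each of these peaks. The first of them is shown in 30 bases (chr1:150487339-150487368, plus strand).
TARS2: gctgtagtaaCCAATagacacggactttgt
WARS2 had peaks in RH4 alone, and the NFYB and NFYC peaks did not overlap: the NFYB peak was centred 134.5 bp inside the gene and the 80 bp NFYC peak 49.5 bp outside it. Its box at -24 was inside the NFYC peak.

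**Figure D3:**
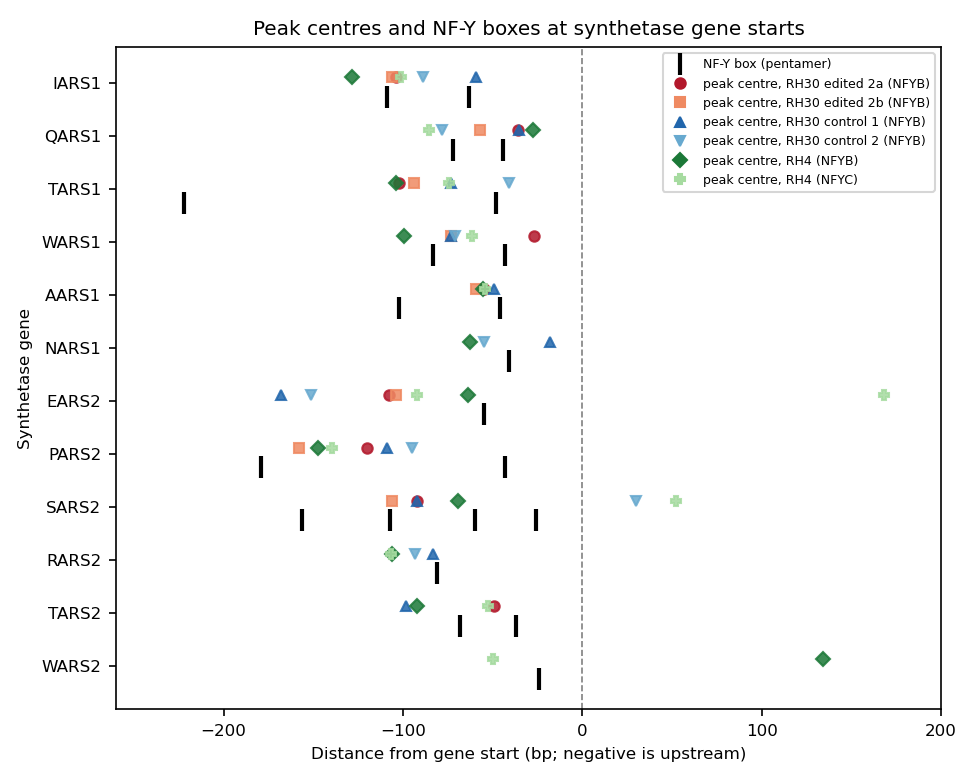
Peak centres (coloured symbols, by library) and NF-Y pentamers (black ticks) at 12 synthetase genes with a peak near a start in the promoter table, in bp from the gene start, negative upstream. Edited 2a and 2b are sgCCAAT2a and sgCCAAT2b, and control 1 and 2 are sgCtrl1 and sgCtrl2. Most centres lie between -150 and 0, for example AARS1 at -49 to -59. SARS2 with sgCtrl2 (30 bp) and RH4 NFYC (52.5 bp), WARS2 for RH4 NFYB (134.5 bp) and a second EARS2 peak for RH4 NFYC (168 bp) lie downstream. EARS2 is plotted from the first of its listed starts.

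Edited and control libraries shared most synthetase peaks. Of the 35 genes, 10 had a peak in both RH30 controls. Of these 8 (80%, 44.4 to 97.5%) had one in both edited libraries, beside 66.3% of all such genes, and 2 (20%, 2.52 to 55.6%) had one in neither, beside 21.6%. The absent pair was NARS1, the asparagine enzyme of the cytosol, and RARS2, the arginine enzyme of mitochondria. A share of 20% beside 21.6% does not set the synthetase genes apart. NARS1, on chromosome 18 from 57600656 to 57621836, stood at place 2504 of 4025 with sgCtrl1 and 2474 of 6687 with sgCtrl2, and RARS2, on chromosome 6 from 87513938 to 87589987, at 2317 and 1430. The RARS2 peak lay between the starts of RARS2 and ORC3, an origin recognition gene, which are 148 bp apart on opposite strands, and was nearer to ORC3 in all 4 lists that held it. Both genes have 1 box, at -41 in NARS1 and -81 in RARS2, inside the peak wherever there was one. NARS1 was also listed for NFYB and not for NFYC in RH4. The reverse pattern, a peak in both edited libraries and not in both controls, was seen at AARS1 and LARS1, each with a peak in sgCtrl1 and none in sgCtrl2. The share of all genes with this pattern was not computed, so whether it sets these genes apart is not known. The LARS1 peaks stood late in the edited lists, at 86.3% of the list with sgCCAAT2a and 93.7% with sgCCAAT2b.

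**Figure D4:**
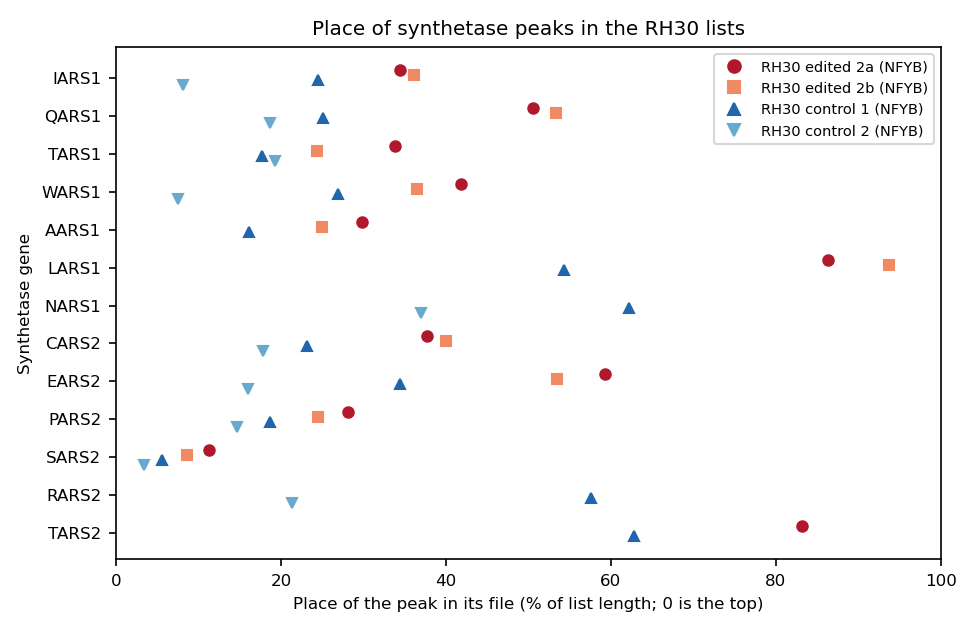
Place of each synthetase peak in its RH30 file, in percent of the list length, with 0 at the top, for the edited (red and orange) and control (blue) libraries. SARS2 is nearest the top in each list, and LARS1 with sgCCAAT2a and sgCCAAT2b is near the end. Lists differ in length, so places can be compared within a list and show no change between lists.

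The authors' deposited tables of peaks higher in sgCtrl2, with thresholds of 2.5-fold and a Poisson p of 0.001 between single libraries, named some of the 10 synthetase genes with an sgCtrl2 peak. The authors' deposited table over sgCCAAT2a named 5 of 10 (50%), beside 56.6% of all genes with an sgCtrl2 peak: IARS1, NARS1, WARS1, EARS2 and RARS2. The authors' deposited table over sgCCAAT2b named 4 of 10 (40%), beside 50.9%: the same genes without EARS2. The authors' deposited table over sgCtrl1 named 0 of 10 (exact interval up to 30.8%), beside 11.7%. Of the genes named over both edited libraries in the authors' deposited tables, IARS1 and WARS1 were nonetheless peaks in each edited list. These tables share the sgCtrl2 library, and the shares lie near or below those of all genes.

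In RH4, 13 of the 35 genes had both an NFYB and an NFYC peak. That is 13 of 15 with NFYB and 13 of 14 with NFYC, where 89.7% of all genes with an NFYB peak had an NFYC peak and 87.9% the reverse. NARS1 and HARS2 had an NFYB peak alone and LARS1 an NFYC peak alone. Of the 13, YARS1 and WARS2 (15.4%) had no peak in any RH30 library, beside 12.1% of all genes. At WARS2 the NFYB and NFYC peaks did not overlap, so it is counted by gene and not by a shared site.

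The NF-Y pentamer was more frequent in synthetase genes with a peak than in those without. It was searched as CCAAT on both strands in the window from 250 bases before to 50 after the start, which the RefSeq table holds for 30 of the 35 genes and 15843 of the 20037. It was found in 13 of 14 genes with a peak in any library (92.9%) and in 3 of 16 without (18.8%). For all protein-coding genes the shares were 69.2% with a peak in any library and 34.0% without. The 8 genes bound in all 6 libraries all held it, beside 89.4% of all genes bound in all 6. CARS2 is counted here and among the genes with 2 or more boxes. Its 4 boxes, however, lay inside none of the peaks at its gene end. The centres of those peaks were 6306 to 6406 bp from the nearest box. The presence of 2 or more boxes was seen in 9 of 14 synthetase genes with a peak (64.3%, beside 35.7% of all genes with a peak) and 1 of 16 without (6.25%, beside 8.49%). By compartment the box was found for 7 of 16 cytosolic genes with a window (43.8%) and 9 of 14 mitochondrial ones (64.3%), beside 42.1% of all genes. Some genes have more than 1 listed window, and the counts are of genes. Median GC content of the windows was 61.5% in synthetase genes with a peak and 62.2% in those without.

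Where a peak covered part of the first window listed for a gene, the box was mostly inside it. This held for 9 of 9 synthetase genes with sgCCAAT2a, 8 of 8 with sgCCAAT2b, 10 of 11 with sgCtrl1, 9 of 9 with sgCtrl2, 11 of 12 for RH4 NFYB and 11 of 11 for RH4 NFYC. EARS2 was the exception with sgCtrl1 and WARS2 for RH4 NFYB. In the second window listed for CARS2, which holds no box and is not in this count, the further RH4 NFYC peak named above overlapped the window. The shares over all genes with such a peak were 88.5%, 89.3%, 83.7%, 70.6%, 79.6% and 82.2% in the same order. The median distance from a synthetase peak's centre to the nearest box was 13 to 25.5 bp over the 6 libraries. Of the 14 bound genes with a window, 12 had a box inside a peak in at least 1 library and 8 had 2 or more. Neighbouring boxes inside peaks were 28 bp apart in QARS1, 31 in TARS2, 40 in WARS1, 46 in IARS1 and 56 in AARS1, with 34, 47 and 49 bp in SARS2. The spacing was wider in PARS2, at 136 bp with both boxes inside the peak in 4 libraries, and in TARS1, at 174 bp with both inside in 1.

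**Figure D5:**
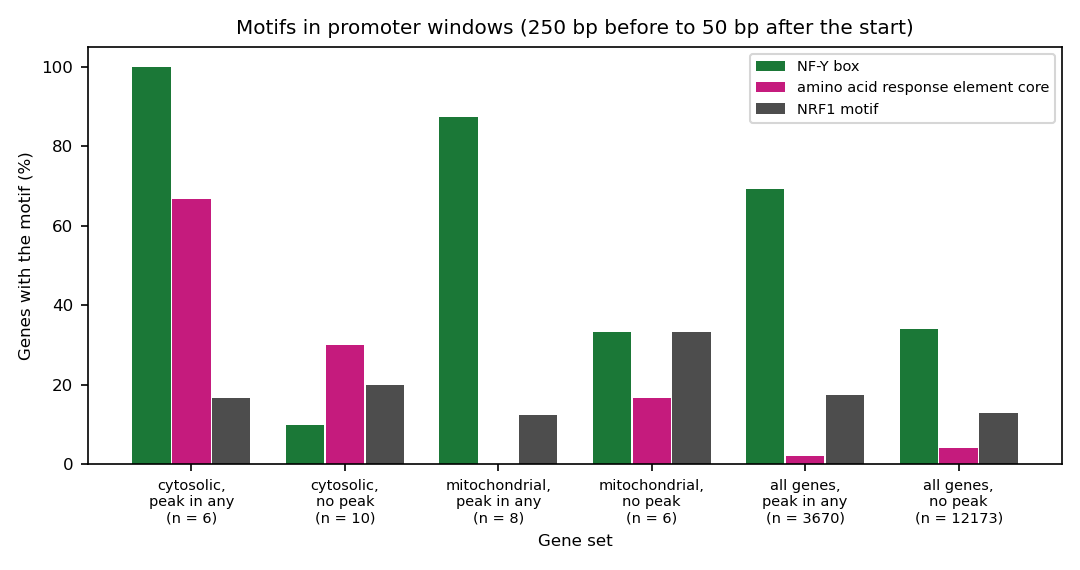
Percent of genes whose promoter window holds the NF-Y pentamer (green), the core of the amino acid response element (pink) or the NRF1 motif (grey), by compartment and presence of a peak in any library, with all protein-coding genes at the right. n is the number of genes with a promoter window. The green bar is 100% for cytosolic genes with a peak and 10% for those without, and 87.5% and 33.3% for mitochondrial genes. The 87.5% includes CARS2, whose boxes lay outside its peaks. The pink bar is 66.7% and 30% for the cytosolic sets and 1.99% and 4.09% for all genes.

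Some synthetase genes hold the box and had no peak. CARS1 has 1 box at -127, IARS2 1 at -183 and MARS2 2, at -171 and -63, and none of these genes had a peak. The mitochondrial serine enzyme gene, shown above with 4 boxes, can be set beside its cytosolic counterpart SARS1, which has none in 200 bases and no peak. The 200 bases before the start are given for SARS1 (chr1:109213693-109213892), IARS2 (chr1:220093932-220094131) and MARS2 (chr2:197705169-197705368), all on the plus strand, with the pentamer in capitals.
SARS1: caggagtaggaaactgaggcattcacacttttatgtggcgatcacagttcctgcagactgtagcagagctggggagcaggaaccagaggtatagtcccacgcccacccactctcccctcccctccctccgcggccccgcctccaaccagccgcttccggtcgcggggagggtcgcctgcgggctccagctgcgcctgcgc
IARS2: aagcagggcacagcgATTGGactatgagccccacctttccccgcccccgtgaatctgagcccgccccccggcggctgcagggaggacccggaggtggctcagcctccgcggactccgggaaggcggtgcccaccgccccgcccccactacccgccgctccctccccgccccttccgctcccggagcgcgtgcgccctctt
MARS2: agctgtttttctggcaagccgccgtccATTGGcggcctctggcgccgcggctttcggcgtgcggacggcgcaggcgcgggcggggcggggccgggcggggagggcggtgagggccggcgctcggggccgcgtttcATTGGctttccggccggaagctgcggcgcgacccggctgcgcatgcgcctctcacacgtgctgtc

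Over the 19 genes without a peak, the nearest peak in any library lay 2233 bp (LARS2) to 1251382 bp (VARS2) from a gene end, with a median of 60441 bp. Several lie beside bound genes of other pathways. The nearest peak to MARS1, the methionine enzyme, was that at DDIT3, a transcription factor of the stress response 3757 to 3871 bp away in 5 libraries. With sgCtrl2 the DDIT3 peak was absent and the nearest lay 32775 bp away. FARSA, a subunit of the phenylalanine enzyme, had its nearest peak 4500 to 4717 bp away in all 6 libraries, at the chaperone gene CALR. FARSB, the other subunit, has its end of lower coordinate, the 3' end, 267901 bp from the end of higher coordinate of PAX3, whose promoter the CCAAT guides target. Its nearest peak was 53312 to 53466 bp away in all 6 libraries, edited ones included, near MOGAT1.

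Cytosolic promoters also held the core of the amino acid response element, which ATF4 binds with a partner. It was searched as TGATGNAA on both strands. It occurred for 7 of 16 cytosolic genes with a window (43.8%) and 1 of 14 mitochondrial ones (7.14%), beside 3.6% of all genes. GARS1 held it in the second of its listed windows only. The cytosolic genes were AARS1, CARS1, GARS1, IARS1, MARS1, NARS1 and TARS1, and the mitochondrial gene was YARS2. None of the matches overlapped an NF-Y box. Of the 7, AARS1, IARS1, NARS1 and TARS1 had an NF-Y peak and CARS1, GARS1 and MARS1 had none. The nearest box was centred 53.5 bp from the element in IARS1 and TARS1, 58.5 bp in NARS1 and 81.5 bp in AARS1. The match lay inside the NF-Y peak in 4 of 6 libraries for IARS1 and TARS1, 3 of 3 for NARS1 and 2 of 5 for AARS1. Such counts depend on peak width and were not read as differences in binding between libraries. Among all genes with a peak in any library the share with the element was 1.99%, and among those without it was 4.09%. The motif of NRF1, a regulator of nuclear genes for mitochondria, was searched on both strands as GCGC, any 2 bases and GCGC. It was found for 3 of 16 cytosolic genes with a window (18.8%) and 3 of 14 mitochondrial ones (21.4%), beside 13.9% of all genes. A match is a description of these letters and not of a bound factor.

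Several synthetase genes face another gene head to head. A start of another protein-coding gene on the opposite strand lay within 1000 bp for 3 of 16 cytosolic genes (18.8%) and 5 of 14 mitochondrial genes (35.7%), beside 13.6% of all genes with a start in the table. The cytosolic ones were HARS1 (facing HARS2), KARS1 (facing TERF2IP, a telomere protein gene) and WARS1, and the mitochondrial ones EARS2, FARS2 (facing LYRM4), HARS2, RARS2 and SARS2. Of these, WARS1, EARS2, RARS2 and SARS2 had a peak between or beside the starts, and the KARS1, FARS2 and HARS1 with HARS2 stretches had none. Given only to the gene whose end was nearest, the mitochondrial genes with a peak in all 6 libraries numbered 2 (EARS2 and PARS2) in place of 4, and the cytosolic ones 3, without WARS1, in place of 4. With sgCtrl2 the mitochondrial genes with a peak numbered 3 in place of 5, and the cytosolic ones stayed at 5. The share of all genes under this nearest-end rule is not given here. These counts therefore cannot be set beside the shares of all genes given above.

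Other genes of tRNA charging were bound unevenly, and the shares over all genes to set beside them are 7.03% in all 6 libraries and 21.7% in at least 1. Of the multisynthetase scaffold genes, AIMP2 and EEF1E1 had a peak in all 6 libraries and AIMP1 in 0. Of 4 genes for tRNA amidation and formylation in mitochondria, QRSL1, a subunit of the glutaminyl-tRNA amidotransferase, had one in 5, missing with sgCCAAT2b, and GATB, GATC and MTFMT in 0. Of 14 genes for tRNA maturation and proofreading, 6 had a peak in at least 1 library. EEFSEC, the elongation factor for selenocysteine, had one in all 6, and ELAC2, which trims the 3' end of tRNA precursors, had one in 5, missing with sgCtrl2. Of 10 genes of the amino acid response 2 had a peak in all 6 and 5 in at least 1. ATF4 itself and SESN2, an inhibitor of mTORC1 signalling, were in all 6, and DDIT3 was missing with sgCtrl2. CHAC1, a glutathione-degrading enzyme, had a peak in both controls and both RH4 lists and in neither edited list. Of all genes with a peak in both controls, 21.6% had one in neither edited list. The authors' deposited tables did not list CHAC1 as higher in sgCtrl2 than in either edited library.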

How the data were processed

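Peak positions of the 6 NFYB and NFYC libraries were used. The values are positions in bp, as deposited, with no usable heights or scores. HOMER's findPeaks called the RH30 peaks in each library by itself, per the file headers, against 1 input directory (2-fold, Poisson p 0.0001) and a surrounding region of 10000 bp (4-fold). The differential tables test the sgCtrl2 list with HOMER (2.5-fold, Poisson p 0.001), per the file headers. For RH4 the sources used here name no caller. The submitters' processing notes name build hg38 and the tools HOMER, MACS2, Bowtie2, Trimmomatic, FastQC, deepTools and bedtools.

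Genes and starts came from RefSeq tables for GRCh38.p14 (35 of 35 synthetase symbols matched, 30 with a promoter). Overlap needed 1 bp with a 1000 bp window at either gene end. Intervals are exact Clopper-Pearson. On simulated peaks, 20 of 20 overlap counts equalled those of bedtools 2.31.1. Peaks were read with Python 3.11.15 and pandas 2.3.3. No test between conditions was made, since each group has 1 library. All synthetase genes could be named, and of other lists at most 4 genes each, those in most libraries first, except that 1 gene is not reported here. The absence of peaks is given for whole lists. Members and lists were chosen with earlier results of these data known. Alternatives were windows of 500 and 3000 bp, the peak centre, gene starts alone, the first or widest part of each list, leaving out GARS1 and KARS1, and, chosen after seeing the data, the nearest gene end, lists of equal length and the set without sgCtrl2.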

Additional observations from a re-analysis of the deposited data

How the results depend on the processing

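No paired analysis was possible because each guide and antibody has 1 library. Of 126 recomputed counts 119 stayed within 1.5 times the reported one and 7 did not. The 119 include counts that could not change, so they are no measure of stability. GARS1 and KARS1 had no peak, so leaving them out alters nothing. The top 2451 entries are the whole sgCCAAT2a list. The count of 0 in the authors' deposited table over sgCtrl1 could not fall under a stricter setting. With the first entries in file order (RH30) or the widest (RH4) making up the stricter part of each list, mitochondrial genes with a peak numbered 3 with sgCCAAT2a, 5 for RH4 NFYB and 4 for RH4 NFYC, cytosolic genes numbered 4 for RH4 NFYB, and cytosolic genes in all 6 libraries numbered 2. Fewer peaks enter by construction. When each peak was given to the nearest gene end alone, mitochondrial genes numbered 3 with sgCtrl2 and 2 in all 6 libraries. No share of all genes under that rule stands beside these counts. With the top 2451 entries of each RH30 list, NARS1 left both control lists and TARS2 left the sgCtrl1 list. At gene starts alone, LARS1 and YARS1, which have no start in the table used, drop out by construction, CARS2 drops out of 5 libraries and HARS2 out of its 1. In the peak counts per library, windows of 500 and 3000 bp and the peak centre changed HARS2 and LARS2 only. With the 3000 bp window the authors' deposited tables named 7 genes over sgCCAAT2a and 6 over sgCCAAT2b, in place of 5 and 4. Peak heights were not used, and tag depth is unknown for RH4.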
